A study of Mus musculus with 4 samples.

Results

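NKT and innate-like T cells of the mouse liver were taken from 4 single-cell RNA sequencing libraries by a rule on their unique molecular identifiers (UMIs), each of which stands for 1 captured RNA molecule. A cell was chosen when it held at least 1 UMI of *Cd3d*, *Cd3e* or *Cd3g*, which encode chains of the CD3 complex, and at least 2 of the 5 genes *Zbtb16*, *Cxcr6*, *Klrb1c*, *Klrb1a* and *Il2rb*. It also had to lack UMIs of *Cd8a*, *Cd8b1*, *Trdc* and *Foxp3*, to hold at most 2 UMIs of the B cell genes *Cd79a*, *Cd79b* and *Ms4a1* together, and to have at most 10% mitochondrial UMIs. The rule chose 453 of 9300 cells. They were 130 of 2086 cells in Naïve, 132 of 2779 in ConA+Veh, 110 of 1880 in ConA+TCDD and 81 of 2555 in ConA+FICZ. The label was borne out only in part. Some chosen cells carried natural killer (NK) cell genes, and some held no UMI of a constant gene of the αβ T cell receptor. They are therefore called the chosen cells below. Too few UMIs of α chain segments were captured in the chosen cells to check the label against the invariant receptor chain. In Naïve, cells that passed the other clauses but held none of the 5 genes had more of them.

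The libraries came from C57BL/6 mice aged 8 to 10 weeks. ConA, or concanavalin A, a lectin from plants, activates T cells and brings on hepatitis in mice. TCDD, a dioxin, and FICZ, a tryptophan derivative, are ligands of the aryl hydrocarbon receptor (AhR), a transcription factor that is active when a ligand is bound. One library is labelled Naïve, and the sources used here do not say whether its mice were given vehicle. ConA+Veh mice received ConA and then vehicle, and ConA+TCDD and ConA+FICZ mice received ConA and then the ligand in its place. Mononuclear cells were prepared 24 h after ConA by dissociation of the liver and a Percoll gradient, with no sort, so that the mixture held B, T, NK, myeloid and other cells. Each group was 1 library, and the number of mice behind a library is not given in the labels.

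NKT cells are T lymphocytes that carry receptors of NK cells beside a T cell receptor. Most of those in the mouse liver are invariant NKT cells, whose α chain always joins the variable segment *Trav11* to the joining segment *Traj18*, and which recognise glycolipids on CD1d. They leave the thymus as effector cells under the transcription factor PLZF (*Zbtb16*), stay in the liver sinusoids through the chemokine receptor CXCR6, depend on IL-15 through the receptor chain encoded by *Il2rb*, and release both IFN-γ and IL-4 soon after activation. They are known as the cells that start the hepatitis caused by ConA.

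The receptor segments are shown here because they are measures that the rule did not use. The sequences were read from the GENCODE vM21 transcripts on GRCm38, the assembly that the authors call mm10, and run 5′ to 3′. *Trav11* (chr14:53519303-53519859, plus strand) and *Trav11d* (chr14:52824357-52824912, plus strand) are copies of the same variable segment. Their spliced coding exons were the same over all 342 aligned bases, so that a read inside the segment fits both and their counts were uncertain. The last 120 of these bases, up to the join, are printed once for both. *Traj18* (chr14:54200777-54200842, plus strand) has only 66 bases, and in it capitals mark the codons of the Phe-Gly-X-Gly motif that ends the third hypervariable loop. Of the β chain segments, *Trbv13-2* (chr6:41121396-41121832, plus strand) is the one most used by invariant NKT cells, and *Trbv13-3* (chr6:41130147-41130585, plus strand) is its neighbour. Bases 202 to 321 of both are printed, with the 14 differing bases in capitals. The 2 segments were identical at 308 of 340 bases, and *Trbv13-2* and *Trbv13-1* at 299 of 337 aligned bases.
Trav11 and Trav11d: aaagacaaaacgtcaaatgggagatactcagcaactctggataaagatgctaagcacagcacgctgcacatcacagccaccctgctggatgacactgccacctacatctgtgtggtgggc
Traj18: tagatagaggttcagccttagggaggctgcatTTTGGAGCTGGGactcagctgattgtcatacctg
Trbv13-2: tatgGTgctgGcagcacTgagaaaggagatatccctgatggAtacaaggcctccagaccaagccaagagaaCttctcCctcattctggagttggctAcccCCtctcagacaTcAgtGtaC
Trbv13-3: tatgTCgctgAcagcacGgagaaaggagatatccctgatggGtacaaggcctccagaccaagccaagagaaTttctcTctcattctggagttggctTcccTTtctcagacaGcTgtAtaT

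Runs of 4 values below stand in 1 order, first Naïve and then ConA with vehicle, with TCDD and with FICZ. The deposited UMIs summed to 5952445, 19252211, 12077209 and 16017797. The chosen cells held 458068, 1002131, 842601 and 581486 of them, with medians of 2747, 4983, 5236 and 5198 UMIs per cell. A Naïve chosen cell was thus measured at a lower depth than a chosen cell of any ConA library. Since the rule asks for the detection of genes, depth enters it, and shares of cells are therefore also given for a random draw of 1000 UMIs from each cell (thinned cells). Of the 6 pairs of libraries, Naïve and ConA+Veh shared the most cell barcodes, 15, of which 2 were chosen cells in both, while every other pair shared between 4 and 8 barcodes and no chosen cell. Doublet callers were not run, so that doublets may still be present. With 1 library per group there was no test between groups, and all differences are between libraries. The intervals given are at 95%. They follow from exact Poisson counts for levels, exact binomial (Clopper-Pearson) counts for shares and the binomial split of both sums for ratios, and they cover counting error only. Levels are summed UMIs per 1000000 UMIs of the chosen cells (CPM), a scale on which fewer cells with a transcript and less transcript per cell cannot be told apart.

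The 5 genes of the rule were detected unevenly, and their values are given as a description, because they made the choice. *Il2rb* (chr15:78479256-78495271, minus strand) was found in 129 of 130, 130 of 132, 108 of 110 and 80 of 81 chosen cells. Nearly every chosen cell therefore held *Il2rb* and at least 1 of the other genes. *Cxcr6* (chr9:123806475-123811760, plus strand) was found in 113, 66, 65 and 44 of them, and its level was 943 CPM in Naïve against 199, 134 and 181 CPM after ConA. *Klrb1c* (chr6:128778485-128789215, minus strand), the gene of the receptor NK1.1, was found in 66, 77, 44 and 39 chosen cells. *Zbtb16* (chr9:48654297-48836222, minus strand) was found in 39, 22, 22 and 21 cells, a minority in every library, and *Klrb1a* (chr6:128609227-128623533, minus strand) in only 3, 19, 11 and 7. No cell held all 5 genes, and 4 of them were found together in 17, 3, 2 and 4 cells.

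The line of the rule fell in the middle of the gated cells, which are those that passed every clause other than the 5 genes. Exactly 2 of the genes were found in 57, 85, 82 and 56 cells, just inside it. Exactly 1 was found in 58, 131, 156 and 102 cells, just outside it. Cells just inside had higher levels of *Ccl5*, which encodes a chemokine, at 5389, 2964, 1921 and 2951 CPM, than those just outside, at 3422, 906, 595 and 665 CPM. For *Gzmb*, the gene of granzyme B, the levels were 485, 2661, 1828 and 1477 CPM inside and 303, 278, 424 and 324 CPM outside.

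As deposited, the chosen cells made up 6.23% (5.23 to 7.36%) of Naïve cells, 4.75% (3.99 to 5.61%) of ConA+Veh cells, 5.85% (4.83 to 7.01%) of ConA+TCDD cells and 3.17% (2.53 to 3.93%) of ConA+FICZ cells. Against Naïve, the share in ConA+Veh had a log2 ratio of −0.39 (−0.75 to −0.03). Against ConA+Veh, which both ligand comparisons share, it was 0.30 (−0.08 to 0.68) with TCDD and −0.58 (−1.001 to −0.17) with FICZ. Without the cells that held a UMI of the NK genes *Ncr1* or *Eomes* these were 0.52 (0.085 to 0.95) with TCDD and −0.22 (−0.68 to 0.23) with FICZ. At 1000 UMIs per cell the shares were 4.07% (78 of 1918 cells), 1.21% (30 of 2481), 1.08% (18 of 1661) and 0.859% (19 of 2211). Naïve then stood further above the ConA libraries, the ConA+Veh share having a log2 ratio to it of −1.75 (−2.41 to −1.13), and the 3 ConA libraries had overlapping intervals. At that depth the ratio of ConA+TCDD over ConA+Veh was −0.16 (−1.09 to 0.73), of the opposite sign to the deposited one, and that of ConA+FICZ over ConA+Veh was −0.49 (−1.40 to 0.38). Among gated cells alone the chosen cells were 41.3%, 34.9%, 29.4% and 31.9%, and 25.4%, 7.87%, 5.50% and 6.88% at 1000 UMIs. Even at a fixed depth the share moves with the levels of the rule genes, and *Cxcr6* was lower in the ConA libraries. Fewer such cells and lower levels of those genes could not be told apart.

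**Figure D1:**
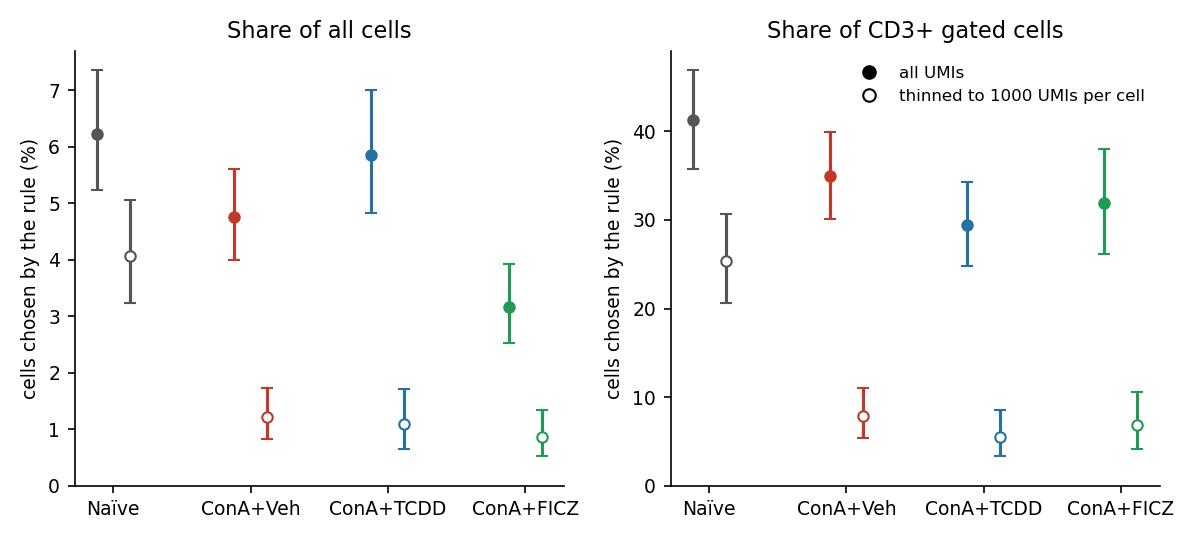
Share of cells that the rule chose in each library, in percent of all cells (left) and of the CD3-positive gated cells (right). Points are single libraries with exact 95% binomial intervals, filled for all UMIs and open for cells thinned to 1000 UMIs, and Naïve lies above the 3 ConA libraries once depth is fixed.

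The receptor of the chosen cells was read first through the invariant segments. *Trav11* had 4 UMIs, in 4 Naïve cells, and none in the other libraries, and *Trav11d* had none. *Traj18* had 5 UMIs in Naïve, 1 in ConA+TCDD and none in ConA+Veh or ConA+FICZ. On a limit of 3 counts, the *Trav11* count of 0 allows up to 2.27% of ConA+Veh, 2.73% of ConA+TCDD and 3.70% of ConA+FICZ chosen cells to hold a UMI. This limits counted UMIs and not use of the segment, because a read inside it fits both *Trav11* and *Trav11d*. Few UMIs of any α chain segment were captured in the chosen cells, 46 in 29 of the 130 in Naïve. Naïve gated cells with none of the 5 genes held 143 in 67 of 127 cells. Their median was 2445 UMIs per cell, against 2747 in the chosen cells, and the reason for the difference was not tested. With so few α chain UMIs, the share of chosen cells with the invariant chain was not measurable.

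The β chain gave more. Of the chosen cells with a UMI of any *Trbv* segment, *Trbv13-2* was found in 60 of 103 Naïve cells, or 58.3% (48.1 to 67.9%), in 26 of 84 ConA+Veh cells, or 31.0% (21.3 to 42.0%), in 23 of 65 ConA+TCDD cells, or 35.4% (23.9 to 48.2%), and in 23 of 52 ConA+FICZ cells, or 44.2% (30.5 to 58.7%). In gated cells with none of the 5 genes the shares were 19.6%, 21.2%, 12.5% and 13.9%, and in CD8 T cells 19.0%, 23.2%, 16.3% and 15.2%. The chosen cells lay above both in all 4 libraries. Their interval was clear of that of the cells with none of the genes in Naïve and ConA+FICZ, where the latter reached 29.1% and 29.5%. It just overlapped it in ConA+TCDD (5.18 to 24.1%) and overlapped it widely in ConA+Veh (11.1 to 34.7%). Cells with exactly 1 of the genes held the segment in 56.3%, 20.9%, 26.3% and 29.2%, and cells with 3 or more in 58.7%, 43.3%, 41.2% and 56.3%. *Trbv13-2* had no UMI in the 63, 92, 71 and 75 NK cells, which lacked CD3 UMIs and held *Ncr1* and at least 2 of the 5 genes. Only 0, 3, 2 and 2 of these held any *Trbv* UMI, so that no share could be compared with theirs. By UMIs its share was 54.8%, 13.6%, 29.4% and 27.9% of all *Trbv* UMIs of the chosen cells. In ConA+Veh a few cells gave many UMIs of other segments, among them 276 UMIs of *Trbv1* in 12 cells, with 46 in the highest cell. At 1000 UMIs per cell *Trbv13-2* was found in 48.7%, 22.2%, 27.6% and 28.0% of chosen cells with a *Trbv* UMI.

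**Figure D2:**
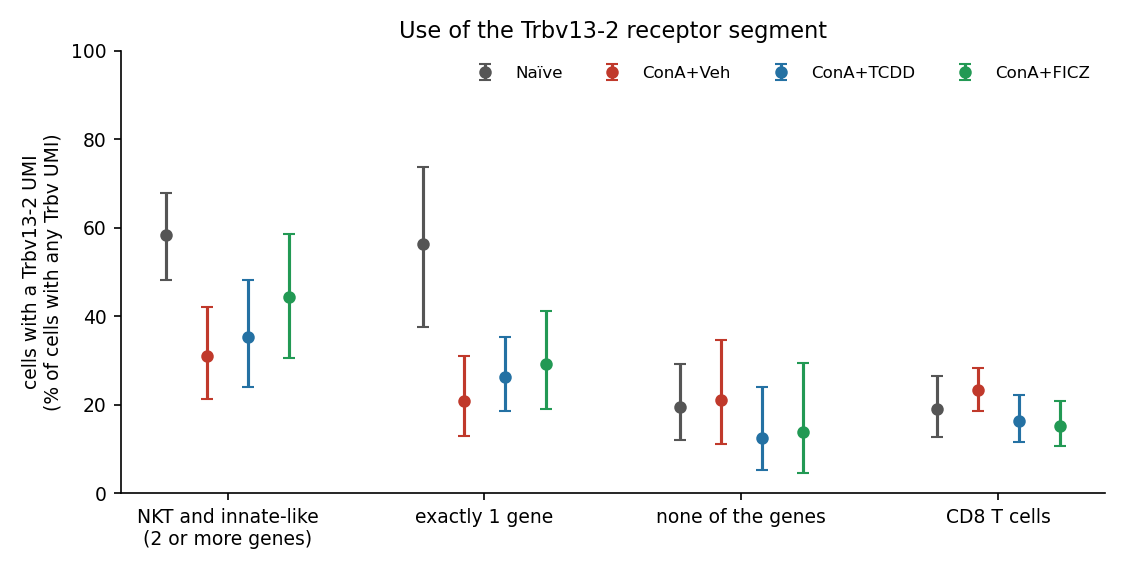
Share of cells with a *Trbv13-2* UMI, in percent of the cells with any *Trbv* UMI, in the chosen cells and in 3 other T cell populations. Points are single libraries with exact 95% binomial intervals, and the Naïve chosen cells, at 58.3%, and Naïve cells with exactly 1 of the genes, at 56.3%, are the highest.

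Constant genes of the αβ receptor (*Trac*, *Trbc1* or *Trbc2*) were found in 122 of 130 Naïve chosen cells (93.8%), 100 of 132 in ConA+Veh (75.8%), 80 of 110 in ConA+TCDD (72.7%) and 74 of 81 in ConA+FICZ (91.4%). After thinning the shares were 73.8%, 31.3%, 32.7% and 46.9%. B cells, which should lack these genes, held them in 0.678%, 5.43%, 4.51% and 1.69% of cells as deposited, with medians of 2157, 4714, 4373.5 and 4055 UMIs. The constant genes of the γ chain (*Tcrg-C1*, *Tcrg-C2* or *Tcrg-C4*) were found in 59, 33, 28 and 26 chosen cells, and of these 58, 29, 23 and 26 also held an αβ constant UMI. The γ constants are also transcribed in many αβ T cells. Over 9 γδ T cell markers, which include these 3 genes, the summed level in the chosen cells was 530, 113, 121 and 174 CPM, with *Trdc* at 0 in each because the rule barred it. The most abundant of them was *Trgv2* in Naïve, with 89 UMIs (194 CPM), and in ConA+TCDD, and *Tcrg-C4* in ConA+Veh and ConA+FICZ. *Trgv2* encodes a γ chain segment. At 1000 UMIs the γ constants were seen in 26.2% of Naïve chosen cells against 3.82%, 6.54% and 8.64% in the ConA libraries. *Cd4* was found in 25, 18, 13 and 13 chosen cells.

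NK cell genes marked a part of the chosen cells that varied with the library. A UMI of *Ncr1*, the gene of the NK receptor NKp46, or of *Eomes*, a transcription factor of NK cells, was found in 9 (6.92%), 38 (28.8%), 19 (17.3%) and 7 (8.64%) chosen cells, and after thinning in 6.35%, 13.7%, 6.54% and 3.70%. In B cells the deposited share was at most 0.775%. No αβ constant UMI was found in 19 of the 38 such cells in ConA+Veh and in 8 of the 19 in ConA+TCDD, but in only 1 each in Naïve and ConA+FICZ. A single CD3 UMI was all that 9, 28, 18 and 10 chosen cells held. The summed level of the 9 NK markers, led by *Gzma* in each library, was 681, 4276, 3178 and 1422 CPM, with *Eomes* and *Klra4* at 0 in Naïve. The part of these cells in the differences between libraries was not tested beyond leaving them out, and the log2 ratio without them is given below for named genes of a comparison that came within 2-fold.

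The cells with an *Ncr1* or *Eomes* UMI stood apart from the other chosen cells in the same library. *Gzma*, which encodes granzyme A, was at 3528 against 148 CPM in Naïve, 15404 against 980 in ConA+Veh, 8720 against 1682 in ConA+TCDD and 11621 against 569 in ConA+FICZ. *Prf1*, the gene of the pore-forming protein perforin, was at 194 against 46.3, 1203 against 29.3, 259 against 33.1 and 441 against 25.5 CPM. *Il4* had no UMI in these cells in any library, against 176, 143, 141 and 36.4 CPM in the other chosen cells. *Icos*, a costimulatory receptor of T cells, was at 38.8 against 359, 38.3 against 245, 136 against 256 and 31.5 against 275 CPM. *Gzma*, *Prf1* and *Ccl5* were thus higher, and *Icos* lower, in the cells with NK genes in all 4 libraries. These cells were fewest in Naïve and ConA+FICZ, where *Icos* rested on very few UMIs in them. In ConA+FICZ *Il4* was too low in the other chosen cells, at 36.4 CPM, for its absence to show a difference. *Cxcr6* was also lower in them, but it is a gene of the rule, so that this is a description only. *Gzmb* was higher in them in Naïve, ConA+Veh and ConA+FICZ but not in ConA+TCDD, where it was at 2770 against 2869 CPM. A split by the receptor gave a related order for *Gzma*. The cells without *Trbv13-2* include those with no *Trbv* UMI. Among chosen cells with NK genes and a *Trbv* UMI, *Trbv13-2* was found in 0 of 2, 0 of 7, 3 of 7 and 0 of 2. *Gzma* was at 4.08 CPM in Naïve chosen cells with *Trbv13-2* and at 724 CPM in those without, and in ConA+Veh, ConA+TCDD and ConA+FICZ at 540 against 4496, 529 against 4364 and 286 against 1675 CPM. The cells with *Trbv13-2* were deeper, with medians of 3335.5, 7419.5, 11267 and 6051 UMIs against 2325, 4436, 4488 and 4505.5.

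**Figure D3:**
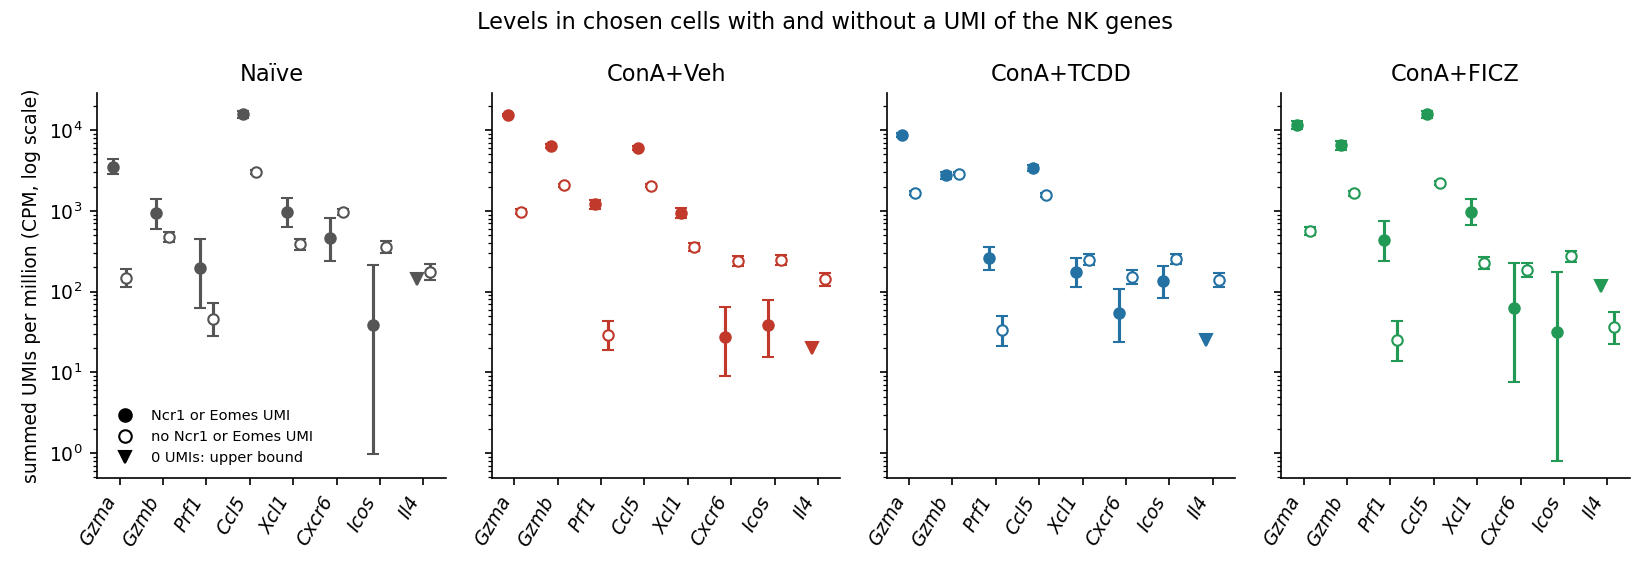
Levels of 8 genes (CPM, log scale) in chosen cells with a UMI of *Ncr1* or *Eomes* (filled) and without one (open), by library, with exact 95% Poisson intervals. Triangles give the upper bound where no UMI was counted, as for *Il4* in the cells with NK genes of every library, and *Gzma* and *Prf1* lie higher in the filled points in all 4 panels.

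Beside the gated cells with none of the 5 genes, the chosen cells had a shared set of further genes. The rule itself made this contrast, so the values are a description. *Ccl5* stood at 3753, 2774, 1885 and 2936 CPM against 265, 147, 141 and 128 CPM. *Nkg7*, which encodes a protein of cytotoxic granules, stood at 1181, 1511, 1188 and 1168 CPM against 39.9, 108, 165 and 113 CPM. *Klrc1*, the gene of the inhibitory receptor NKG2A, stood at 223, 177, 126 and 129 CPM against 11.4, 3.57, 4.80 and 1.64 CPM. *Xcl1*, *Klrd1*, *Klrk1*, *Ctsw* and *Rgs1* were higher in all 4 libraries too. The genes lower in all 4 included *Ccr7*, a receptor gene for homing to lymph nodes, at 4.37, 109, 99.7 and 44.7 CPM against 789, 542, 1256 and 569 CPM, and *Tcf7*, the gene of the transcription factor TCF1, at 74.2, 47.9, 8.31 and 36.1 CPM against 601, 196, 114 and 225 CPM. The 15 that ranked first among the lower genes also held *Ifitm3*, *Cxcl2*, *S100a8* and *S100a9*, the last 3 of which are abundant in myeloid cells. Beside NK cells of the same library, *Icos*, *Cd28*, *Cxcr3*, *Rora* and *Ltb* were higher and *Gzma*, *Prf1*, *Ccl5*, *Ccl4*, *Tyrobp* and *Fcer1g* lower in all 4. The log2 ratio to NK cells was 4.28, 2.39, 2.15 and 2.56 for *Icos* and −4.46, −2.48, −2.95 and −4.38 for *Gzma*. NK cells had no *Il4* UMI in any library, whereas *Il4* was found in 45, 25, 18 and 12 chosen cells.

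The comparison for ConA was ConA+Veh over Naïve. In the chosen cells of ConA+Veh 6 of 9 granule genes and 9 of 13 genes of the cell cycle were at least 2-fold higher than in those of Naïve. At least 2-fold lower were 7 of 10 genes of the receptor complex, 6 of 10 of the type 1 program and 8 of 15 of the early response list, which had 3 higher. The receptor complex count includes CD3 genes that the rule used, and for these it is a description only. Of 3577 genes with at least 50 UMIs in both libraries together, 289 (8.08%) were at least 2-fold higher and 475 (13.3%) at least 2-fold lower in ConA+Veh, and the median log2 ratio was −0.09. With median-of-ratios size factors in place of summed UMIs, 548 were higher and 248 lower and the median was 0.23. A count of a list's members is read against these shares.

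Of the 9 cytotoxic granule genes measured, 6 were at least 2-fold higher and none lower, with a median log2 ratio of 1.99. Without the cells with NK genes 4 of the 9 were higher and 1 lower. *Gzma* rested on 155 UMIs in 11 Naïve cells and 3619 UMIs in 77 ConA+Veh cells, that is 338 and 3611 CPM, a 10.7-fold difference with a log2 ratio of 3.42 (3.18 to 3.66). *Gzmb* was found in 41 of 130 and 114 of 132 cells, and its level was 502 and 2847 CPM (log2 ratio 2.50, 2.31 to 2.70). It was thus a matter of many cells, and thinned to 1000 UMIs *Gzmb* was still found in 21.4% and 73.3% of them, against 0.296% and 4.26% of B cells. Both granzymes together were found in 11 Naïve and 70 ConA+Veh cells, and neither in 89 and 11. *Prf1* was at 54.6 and 243 CPM (2.16, 1.56 to 2.81), but without the cells with NK genes its log2 ratio was −0.66. *Gzmc* was at 24.0 and 115 CPM, *Serpinb9*, which encodes an inhibitor of granzyme B, at 76.4 and 304 CPM, and *Serpinb6b* at 172 and 391 CPM (0.92 without the cells with NK genes). *Srgn*, *Nkg7* and *Ctsw* were within 2-fold.

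The genes of the cell cycle, 13 of which were measured, were at least 2-fold higher in 9 and lower in none, with a median log2 ratio of 1.41. *Birc5*, a gene of mitosis, was at 10.9 CPM in Naïve and 126 CPM in ConA+Veh (3.53, 2.27 to 5.17). *Top2a* was at 91.7 and 274 CPM (1.58, 1.11 to 2.09), and *Stmn1* at 109 and 402 CPM (1.88, 1.45 to 2.34). A UMI of *Mki67* or *Top2a*, which mark cycling cells, was found in 10 of 130 (7.69%) and 47 of 132 cells (35.6%), and after thinning in 3.97% and 13.7%. In B cells the deposited shares were 1.84% and 24.7%, so that these genes were also more often found outside the chosen cells.

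The type 1 program is the one through which NKT cells make IFN-γ. Of its 10 measured genes, 6 were at least 2-fold lower and none higher, with a median log2 ratio of −1.06. With size factors 3 were lower, and 3 were when the rule was applied to the thinned cells (cells chosen after thinning). *Tbx21*, the gene of its transcription factor T-bet, was at 129 CPM in Naïve and 49.9 CPM in ConA+Veh (−1.37, −1.94 to −0.80). *Cxcr3*, a homing receptor, was at 288 and 82.8 CPM (−1.80, −2.21 to −1.39), and *Il12rb2*, a chain of the IL-12 receptor, at 109 and 38.9 CPM. *Ifng* was at 242 and 117 CPM (−1.05, −1.44 to −0.67), but it was found in the same number of cells, 45 of 130 and 45 of 132, and 32 of the 117 UMIs of ConA+Veh came from 1 cell. The log2 ratio of *Ifng* was −0.73 with size factors and 0.054 with no correction for depth. *Il4* was at 166 and 117 CPM (−0.51, −0.94 to −0.07), within 2-fold, and was found in 45 and 25 cells. Both cytokines were found together in 16 and 12 cells. Of the 6 measured genes of the type 2 program, *Gata3* and *Cd4* were at least 2-fold lower (*Cd4* −0.90 with size factors) and *Plac8* was higher, at 229 and 693 CPM.

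The rule asked for a UMI of *Cd3d*, *Cd3e* or *Cd3g*, so CD3 genes in the following count are a description only. Of the 10 measured constants and CD3 genes, 7 were at least 2-fold lower in ConA+Veh and none higher. With size factors 4 were, and *Cd3e*, *Trac* and *Tcrg-C4* were within 2-fold at −0.83, −0.82 and −0.90. Without the cells with NK genes 6 were, and *Cd3e* was just within 2-fold. Of the 38 such cells in ConA+Veh, 19 held no αβ constant UMI. All 4 of the measured γδ markers, namely *Trgv2* and the 3 γ constants counted among the 10, were at least 2-fold lower in ConA+Veh, with a median log2 ratio of −2.62, and the part of γδ T cells in the differences between libraries was not tested. *Trac* was at 454 and 207 CPM, *Trbc1* at 380 and 101 CPM, and *Trbc2* at 629 and 113 CPM (−2.48, −2.81 to −2.16). *Cd3d*, also a gene of the rule, differed little, at 758 and 727 CPM. *Trbv13-2* was at 906 and 107 CPM (−3.08, −3.41 to −2.78).

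Early response genes, which are induced within minutes of a stimulus, had 8 of the 15 measured members of their list at least 2-fold lower. *Junb* was at 5325 CPM in Naïve and 922 CPM in ConA+Veh (−2.53, −2.64 to −2.42). It was found in 128 of 130 and 121 of 132 cells. *Jun* was at 816 and 94.8 CPM, *Fos* at 524 and 78.8 CPM, *Dusp1* at 915 and 161 CPM and *Btg2* at 1050 and 263 CPM. The 3 members at least 2-fold higher were the chaperone genes *Hspd1*, *Hspe1* and *Hsp90aa1*, the first at 120 and 460 CPM.

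Of 16 measured genes of activation and inhibition, most of them receptor genes, 5 were at least 2-fold higher, among them *Tigit* at 21.8 and 164 CPM, *Tnfrsf9* (4-1BB) at 28.4 and 176 CPM and *Tnfrsf4* (OX40) at 24.0 and 126 CPM. The 2 lower ones, a share near that of all genes, were *Egr1*, which encodes a transcription factor, and *Cd44*, an adhesion receptor gene. The log2 ratio of *Cd44* was 0.033 with no correction for depth and 0.074 in cells chosen after thinning. *Ccr7* was at 4.37 and 109 CPM, but 50 of its 109 UMIs in ConA+Veh lay in 1 cell and it was found in only 12 cells. In cells chosen after thinning its log2 ratio was −1.25, of the opposite sign. Among killer receptors 6 of 16 were at least 2-fold higher and 4 lower. *Klra8* had 3 UMIs in 1 Naïve cell and 63 UMIs in 20 ConA+Veh cells. *Klra4* was at 0 against 62 UMIs in 15 cells, and the interval of its log2 ratio began at 2.90. *Cd160* and *Cd226* were lower, at 262 and 194 CPM in Naïve against 99.8 and 62.9 CPM. Of 8 genes stimulated by type I interferon, 4 were at least 2-fold higher (*Isg15*, *Isg20*, *Bst2* and *Ifi27l2a*) and none lower, whereas none of 8 genes induced by IFN-γ passed 2-fold in either direction.

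Among genes outside the lists, *AA467197* was at 4.37 CPM in Naïve and 125 CPM in ConA+Veh, spread over 40 of 132 cells. *Ifitm3*, an antiviral membrane protein gene, was at 10.9 and 190 CPM in 2 and 27 cells. *Dtx1*, which encodes a regulator of Notch signalling, was at 129 and 2.99 CPM (−5.43, −7.75 to −3.81), in 43 and 3 cells. *Mmp9*, the gene of a matrix protease, was at 135 and 6.99 CPM in 33 and 4 cells, and *S100a4* at 118 and 5.99 CPM in 24 and 4 cells. These 3 were thus spread over many Naïve cells.

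**Figure D4:**
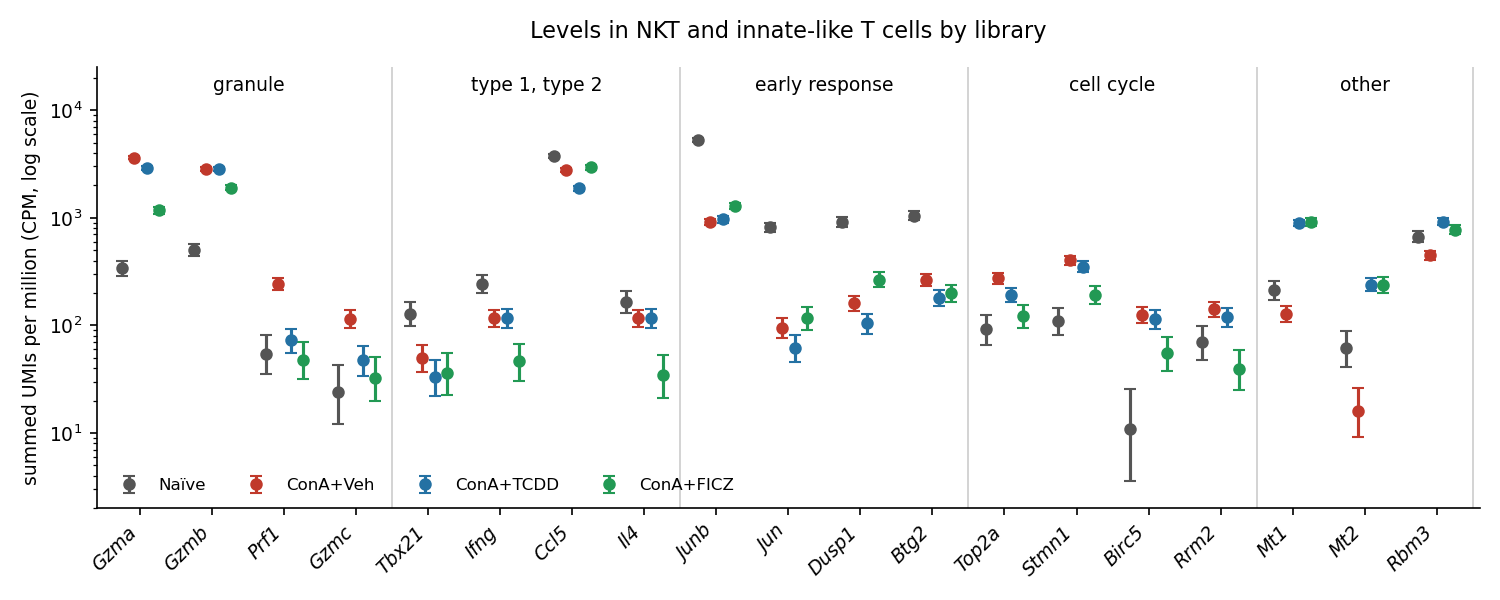
Levels of 19 genes in the chosen cells of each library (CPM, log scale), with exact 95% Poisson intervals. *Gzma* and *Gzmb* are lowest in Naïve, the early response genes are highest in Naïve, and *Mt1* and *Mt2* are highest in ConA+TCDD and ConA+FICZ.

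The comparison for TCDD was ConA+TCDD over ConA+Veh. Fewer genes were past 2-fold than for ConA, among them killer receptor genes, which were lower, and metallothioneins, which were higher. Of 3907 genes measured, 36 (0.921%) were at least 2-fold higher and 72 (1.84%) at least 2-fold lower, with a median log2 ratio of 0.01. Of 15 killer receptor and adaptor genes, 6 were at least 2-fold lower and none higher, with a median of −0.90. Without the cells with NK genes, a setting that removes every *Ncr1* UMI, 2 of the 15 were lower, and the log2 ratio was −0.45 for *Klra1*, −0.41 for *Klra7* and −0.48 for *Tyrobp*. *Klra8* had 63 UMIs in ConA+Veh and 6 in ConA+TCDD, that is 62.9 and 7.12 CPM (−3.14, −4.64 to −1.94). *Tyrobp*, the adaptor that signals for activating killer receptors, was at 712 and 300.3 CPM (−1.25, −1.46 to −1.04), and *Ncr1* at 76.8 and 27.3 CPM. Of the 7 measured NK markers 5 were at least 2-fold lower, and 3 without those cells, whose removal takes out every *Ncr1* and *Eomes* UMI. An *Ncr1* or *Eomes* UMI was held by 19 of 110 chosen cells there and by 38 of 132 in ConA+Veh. *Prf1* was at 243 and 72.4 CPM (−1.75, −2.18 to −1.34), and without those cells its log2 ratio was 0.17.

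The 2 main granzyme genes were within 2-fold. *Gzmb* was at 2847 CPM in ConA+Veh and 2852 CPM in ConA+TCDD, with a log2 ratio of 0.00 (−0.08 to 0.08), and *Gzma* at 3611 and 2909 CPM (−0.31, −0.39 to −0.24). The direction of *Gzma* turned in 2 settings, its log2 ratio being 0.78 without the cells with NK genes and 1.01 in cells chosen after thinning. *Gzmb* was found in 86.4% and 78.2% of chosen cells, and *Gzma* in 77 of 132 and 55 of 110. *Ifng* was at 117 and 116 CPM and *Il4* at 117 and 116 CPM, with log2 ratios of −0.01 for both. In *Il4* 34 of 117 and 29 of 98 UMIs came from 1 cell each. None of the 13 genes of the cell cycle passed 2-fold. Among cytokines *Lta*, which encodes lymphotoxin α, was at 60.9 and 7.12 CPM (−3.10, −4.60 to −1.89), and *Ltb* at 338 and 110 CPM (−1.62, −1.96 to −1.28). These were the only 2 of 10 measured cytokine genes past 2-fold.

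*Tcf7*, the gene of the transcription factor TCF1, was at 47.9 and 8.31 CPM (−2.53, −3.92 to −1.38), and *Klf2*, a transcription factor gene, at 154 and 67.6 CPM (−1.18, −1.65 to −0.74, and −0.60 without the cells with NK genes). *Tnfrsf4* was at 126 and 40.4 CPM and *Tnfrsf18* (GITR) at 271 and 126 CPM. Among 8 type I interferon-stimulated genes, 3 were at least 2-fold lower (*Isg15*, *Isg20* and *Irf7*) and none higher, with *Isg15* at 393 and 174 CPM (−1.17, −1.46 to −0.90). In cells chosen after thinning the log2 ratios were −0.58 for *Isg15*, 0.40 for *Isg20* and −0.51 for *Irf7*. Of the genes at least 2-fold higher, *Ctla2a*, which encodes a cathepsin inhibitor, was at 278 and 590 CPM (1.08, 0.87 to 1.30) in 87 and 76 cells. Its log2 ratio was 0.98 without its top cell and −0.36 in cells chosen after thinning. *Rbm3*, the gene of a cold-inducible RNA-binding protein, was at 450 and 923 CPM (1.04, 0.87 to 1.21, and 0.98 without the cells with NK genes) in 100 and 87 cells, and *Fabp5*, a fatty acid binding protein gene, at 59.9 and 146 CPM in 27 and 37 cells. These 3 were spread over many cells.

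The comparison for FICZ was ConA+FICZ over ConA+Veh, with 81 chosen cells on one side. At least 2-fold lower were 6 of 13 genes of the cell cycle, 4 of 10 cytokine genes and 5 of 7 NK markers, and *Mt1* and *Mt2* were higher. Of 3552 genes measured, 32 (0.901%) were at least 2-fold higher and 88 (2.48%) at least 2-fold lower, with a median log2 ratio of −0.01. Of 13 cell cycle genes, 6 were at least 2-fold lower and none higher, with a median of −0.92. *Rrm2*, a subunit of ribonucleotide reductase, was at 141 CPM in ConA+Veh and 39.6 CPM in ConA+FICZ (−1.83, −2.53 to −1.19), and *Mki67* at 145 and 51.6 CPM (−1.49, −2.11 to −0.91). *Ube2c*, a gene of mitosis, had 104 UMIs in 22 ConA+Veh cells and 4 UMIs in 3 ConA+FICZ cells (−3.92, −5.82 to −2.52). The share of cells with *Mki67* or *Top2a* was 35.6% and 27.2% as deposited and 13.7% and 6.17% after thinning. Histone genes *Hist1h2ap* and *Hist1h4d* were at 139 and 55.9 CPM in ConA+Veh against 31.0 and 8.60 CPM in ConA+FICZ.

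Of 10 cytokine genes, 4 were at least 2-fold lower in ConA+FICZ and none higher. Without the cells with NK genes 2 were lower, as were 2 of the 7 NK markers. This setting removes every UMI of *Ncr1* and *Eomes*, which are in the NK marker list, so part of that drop was fixed beforehand. *Il4* was at 117 and 34.4 CPM (−1.76, −2.53 to −1.07), in 25 of 132 and 12 of 81 cells, and 34 of the 117 UMIs of ConA+Veh lay in 1 cell. In cells chosen after thinning the log2 ratio of *Il4* was 0.78. *Ifng* was at 117 and 46.4 CPM (−1.33, −1.99 to −0.72), in 45 and 18 cells. *Ccl4*, a chemokine gene, was at 603 and 236 CPM (−1.36, −1.63 to −1.09), and *Lta* at 60.9 and 12.0 CPM. *Nr4a1*, *Nr4a2* and *Nr4a3*, which are induced through the T cell receptor, were at 192, 111 and 92.8 CPM in ConA+Veh and at 86.0, 43.0 and 24.1 CPM in ConA+FICZ, each at least 2-fold lower. Of 9 granule genes 3 were at least 2-fold lower, and 1 without the cells with NK genes. *Gzma* was at 3611 and 1173 CPM (−1.62, −1.74 to −1.50), *Prf1* at 243 and 48.2 CPM (−2.34, −2.96 to −1.77) and *Gzmc* at 115 and 32.7 CPM. *Gzmb*, at 2847 and 1912 CPM (−0.57, −0.68 to −0.47), was within 2-fold. Without the cells with NK genes the log2 ratio was −0.78 for *Gzma*, −0.20 for *Prf1*, −0.51 for *Ifng*, −0.98 for *Ccl4* and −0.50 for *Tyrobp*, all within 2-fold. Those genes were held by 38 of 132 ConA+Veh and 7 of 81 ConA+FICZ chosen cells. *Ccl5* was at 2774 and 2936 CPM, with a log2 ratio of 0.08 (−0.01 to 0.17).

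Genes higher in ConA+FICZ and spread over many cells had small counts. *Aamp* was at 57.9 and 131 CPM (1.18, 0.66 to 1.69) in 44 and 41 cells. *Dapk3*, a kinase gene, was at 23.0 and 63.6 CPM in 20 and 31 cells, *Ormdl3*, which regulates sphingolipid synthesis, with 20 and 33 UMIs in 17 and 24 cells, and the noncoding *Snhg12* at 42.9 and 99.7 CPM in 27 and 34 cells (0.99 without the cells with NK genes). They were taken by rank among the genes past 2-fold.

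**Figure D5:**
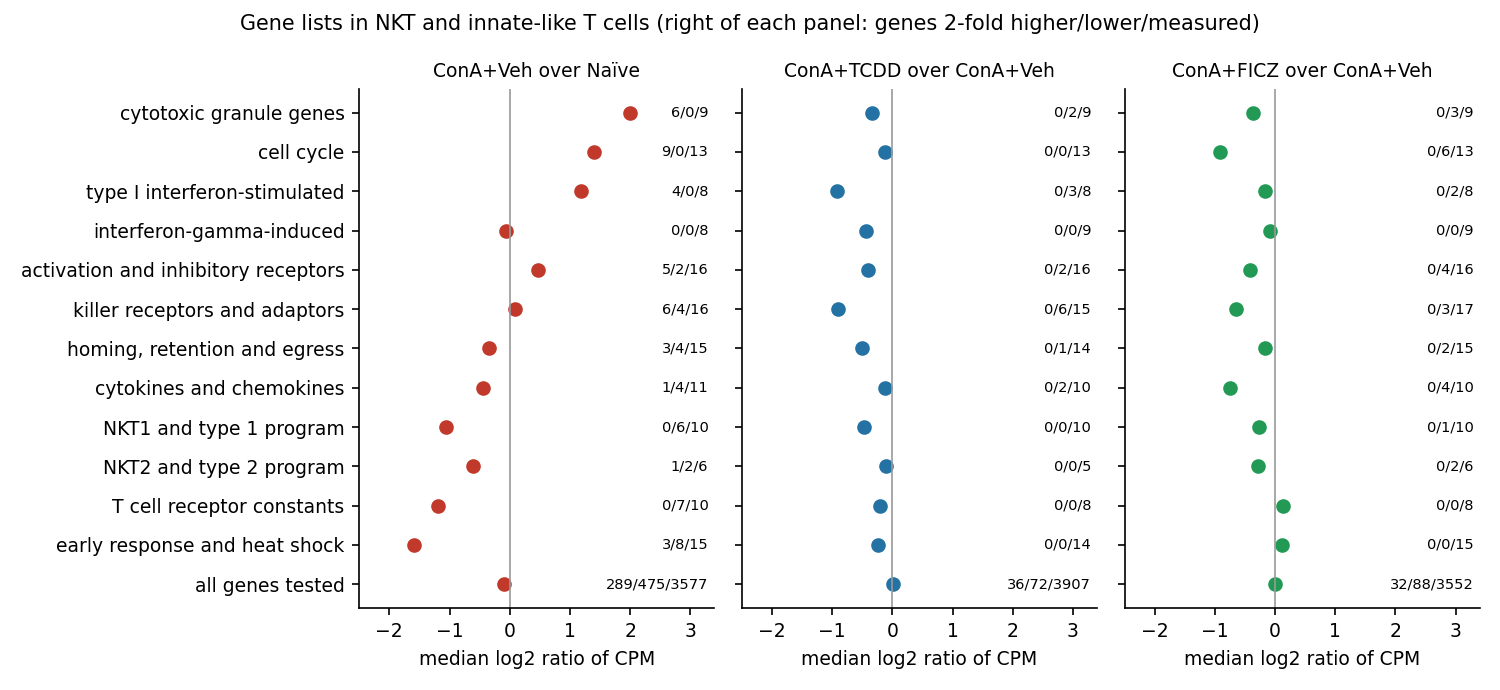
Median log2 ratio of the measured genes of 12 lists, and of all genes measured, in the chosen cells for the 3 comparisons. Numbers at the right of each panel are genes at least 2-fold higher, at least 2-fold lower and measured, and granule and cell cycle lists lie to the right for ConA+Veh over Naïve while killer receptors lie to the left for ConA+TCDD and cell cycle genes for ConA+FICZ.

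The metallothioneins *Mt1* and *Mt2*, small proteins that bind zinc and copper, were higher beside either ligand. *Mt1* was at 214 CPM in Naïve, 128 CPM in ConA+Veh, 894 CPM in ConA+TCDD and 922 CPM in ConA+FICZ. *Mt2* was at 61.1, 16.0, 240 and 239 CPM. Both were thus high in the libraries with an AhR ligand, and the 2 comparisons share ConA+Veh. The log2 ratio of *Mt1* was 2.81 (2.53 to 3.09) for ConA+TCDD and 2.85 (2.57 to 3.14) for ConA+FICZ, and that of *Mt2* 3.91 (3.17 to 4.74) and 3.90 (3.15 to 4.75). *Mt1* was found in 6, 28, 40 and 36 chosen cells, with 79 of the 98 Naïve UMIs and 137 of the 753 and of the 536 UMIs in 1 cell each. In CD8 T cells *Mt1* was at 107 CPM in ConA+Veh and at 154 and 131 CPM in ConA+TCDD and ConA+FICZ, and in gated cells with none of the 5 genes at 505, 363 and 450 CPM.

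The receptor itself was measured at low counts. *Ahr* had 10, 29, 27 and 14 UMIs, that is 21.8, 28.9, 32.0 and 24.1 CPM with overlapping intervals. Its classic targets *Cyp1a1*, *Cyp1b1*, *Ahrr* and *Nqo1* had no UMI in the chosen cells of any library. *Tiparp*, another target, had 7, 10, 15 and 11 UMIs. A difference in these genes was not detectable at this depth.

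Some of the genes with the largest ratios rested on 1 cell. Of 1062 UMIs of the haemoglobin gene *Hbb-bs* in Naïve chosen cells 1060 lay in 1 cell, and of 953 in ConA+TCDD 874 did. Of 556 UMIs of *S100a9*, a neutrophil gene, in ConA+FICZ 553 lay in 1 cell, as did 577 of 579 UMIs of *S100a8*, all 116 of *Retnlg* and 64 of 81 of *Lcn2*. In ConA+Veh 142 of 144 *S100a9* UMIs and all 60 *Retnlg* UMIs were from 1 cell, 91 of 129 *Cd74* UMIs were, and *Cxcl2* had 146 UMIs in 5 cells. For *Ifitm1* 52 of 53 UMIs in ConA+TCDD lay in 1 cell. Markers of other cell types followed these cells. The summed level of 8 myeloid genes was 21.8, 332, 19.0 and 2065 CPM, with *Lyz2*, *C1qa*, *C1qb* and *C1qc* at 0 in ConA+TCDD. That of 5 erythroid genes, led by *Hbb-bs*, was 4357, 23.9, 1615 and 1.72 CPM. The sum of 7 hepatocyte genes, led by *Alb*, stood at 31, 11, 6 and 46 UMIs. A UMI of one of these or of the 6 endothelial genes was found in 37, 47, 44 and 35 chosen cells. Their part in other differences was not tested beyond leaving these cells out.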

How the data were processed

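Unsorted liver mononuclear cells were profiled with the 10x 5′ kit. The counts were deposited by the authors as whole UMIs per gene and cell, made with Cell Ranger (3.0.2 in the matrix header) on mm10, with barcodes already filtered. Cells were chosen by the rule in the text with no doublet caller, and the limit on B cell UMIs removes only some doublets. UMIs were summed over the chosen cells of a library and scaled to CPM, so depth sets the precision and low counts give wide intervals. A gene was compared where both libraries together held 50 UMIs or more, and called at a 2-fold difference in either direction. Beside the fixed lists, named genes were taken from the 10 highest and 10 lowest per comparison, ranked by the bound of the 95% interval nearest 0, leaving out rule genes, receptor segments, mitochondrial and ribosomal genes and unnamed gene models. Genes named from the contrast with other cells were taken from the genes of the same direction in all 4 libraries after their values were seen. The members and lists were chosen with earlier results of these data known. Thinning used seed 1. The tools were scipy 1.17.1, numpy 2.4.6, pandas 2.3.3, Biopython 1.88 and matplotlib 3.10.9 under Python 3.11.15. The arithmetic was checked on simulated sums for the ConA, TCDD and FICZ comparisons, in that order. Of genes changed 4-fold, 149 of 149, 183 of 183 and 172 of 173 were recovered among 3559, 3916 and 3527 genes. Called as well were 19, 13 and 25 unchanged genes. The sums were Poisson draws without cells, which is the model behind the intervals. They could not show errors from UMIs gathered in few cells or from a differing make-up of the chosen cells. Depth, filters, scaling and the make-up of the chosen cells were varied as alternatives. Some genes of the lists are not reported here.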

Additional observations from a re-analysis of the deposited data

How the results depend on the processing

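With 1 library per group no library could be left out, and depth, with 81 to 132 chosen cells a library, limits what low genes can show. No paired analysis was possible because each group holds a single sample and no result comes from a test. Runs of 4 values again start with Naïve and then give ConA with vehicle, TCDD and FICZ. The share of chosen cells was 4.07%, 1.21%, 1.08% and 0.859% at 1000 UMIs per cell, 1.68%, 0.504%, 0.266% and 0.391% at 500 UMIs, 3.50%, 1.69%, 1.49% and 0.978% with 3 or more of the 5 genes, 41.3%, 34.9%, 29.4% and 31.9% of gated cells, and 4.46%, 3.06%, 3.51% and 1.80% without cells with UMIs of other lineages. In ConA+Veh it was 3.74% with 2 or more CD3 UMIs and 3.38% without cells with NK genes. The log2 ratio of the share to Naïve was −1.75 and −1.74 at 1000 and 500 UMIs, −1.05 with 3 or more genes and −0.78 without cells with NK genes. For ConA+TCDD against ConA+Veh it was −0.16 and −0.92 at 1000 and 500 UMIs, −0.18 with 3 or more genes and −0.25 among gated cells, but 0.52 without cells with NK genes and 0.39 with 2 or more CD3 UMIs. For ConA+FICZ it was −0.13 among gated cells and −0.22 without cells with NK genes. *Trav11* was in 3.08% of Naïve chosen cells without thinning. The following *Trbv13-2* settings were chosen after seeing the data, as was leaving out the top cell of a gene: its share was 43.3% in ConA+Veh with 3 or more genes and 28.0% in ConA+FICZ after thinning.

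The counts of genes at least 2-fold higher and lower in ConA+Veh than in Naïve were 1822 and 53 with no correction for depth (median log2 ratio 1.01), 548 and 248 with size factors, 64 and 81 for cells chosen after thinning, 520 and 1154 from 20 UMIs, 84 and 70 from 200 UMIs and 2290 and 3566 with no filter, and 272 were lower without cells with UMIs of other lineages. For ConA+TCDD against ConA+Veh they were 95 and 169 as a mean over cells, 7 and 19 for cells chosen after thinning, 160 and 246 from 20 UMIs, 6 and 13 from 200 UMIs and 1579 and 2023 with no filter. For ConA+FICZ they were 78 and 148, 5 and 19, 194 and 283, 3 and 14, and 1647 and 2269 under the same settings. Fewer cells or genes enter after thinning or at 200 UMIs, and for the other settings the cause was not tested.

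Some genes changed sign. Without cells with NK genes *Prf1* was −0.66 in ConA+Veh over Naïve and 0.17 in ConA+TCDD over ConA+Veh, where *Gzma*, within 2-fold at −0.31, was 0.78. Other genes within 2-fold also changed sign without these cells, among them *Nkg7*, which was −0.27 against 0.36 in ConA+Veh over Naïve, and *Fcer1g*, which was 0.11 against −0.72 in ConA+TCDD over ConA+Veh. In cells chosen after thinning, ConA+Veh over Naïve was −1.25 for *Ccr7*, −3.60 for *Cd74*, 0.074 for *Cd44* and 1.66 for *Hbb-bs*, ConA+TCDD over ConA+Veh was −0.36 for *Ctla2a* and 0.40 for *Isg20*, and ConA+FICZ over ConA+Veh was 0.78 for *Il4*, 0.52 for *Klra8*, 0.52 for *Tnfrsf4* and 2.10 for *Klra4*. With no correction for depth *Ifng* was 0.054 and *Cd44* 0.033 in ConA+Veh over Naïve. Without cells with UMIs of other lineages *Trbv1* was −0.82 in ConA+Veh over Naïve, *Ifitm1* −0.74 in ConA+TCDD and *Ccr7* 0.21 in ConA+FICZ over ConA+Veh. Without the top cell *S100a8* was −1.71, *S100a9* −1.13 and *Hbb-bs* 1.96 in ConA+Veh over Naïve. In ConA+TCDD over ConA+Veh *S100a8* was then 1.57, *S100a9* 1.84 and *Ifitm1* −1.75. These values without the top cell rest on few UMIs and give no direction for the genes. Nearly all UMIs of *S100a9* in ConA+Veh, *Hbb-bs* in Naïve and *Ifitm1* in ConA+TCDD lay in the top cell. With all cells kept, *S100a8* had only 4 UMIs in Naïve and 6 in ConA+TCDD.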

Other observations

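In ConA+Veh over Naïve 8.08% of all genes measured were at least 2-fold higher and 13.3% lower, and the lower counts of the transcription factor and survival lists below are near that share, so that they are no result about those lists. Of 12 transcription factor genes measured in ConA+Veh over Naïve, *Irf8* and *Nfil3* were at least 2-fold higher and *Bcl11b* and *Maf* lower. Without the cells with NK genes the log2 ratio of *Nfil3* was 0.76, against 1.19 with them. *Irf8*, a factor of interferon responses, was at 41.5, 278, 210 and 172 CPM, in the order Naïve and then ConA with vehicle, TCDD and FICZ. Of 12 cytokine receptor and feedback genes, 2 were at least 2-fold higher and 3 lower. Among the lower ones *Il7r*, the receptor chain for IL-7, had a log2 ratio of −1.80, and *Socs2*, an inhibitor of cytokine signalling, one of −2.44. Of 8 survival genes *Bcl2*, which protects from cell death, was at least 2-fold lower, at 347 CPM in Naïve and 145 CPM in ConA+Veh (−0.94 with size factors). In the ligand comparisons none of the cytokine receptor or survival genes measured was past 2-fold.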
